A study of Caenorhabditis elegans with 2 samples.

Results

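Described here is the occupancy of tagged DPL-1 at 10 Caenorhabditis elegans genes that encode synMuv B heterochromatin and NuRD-like proteins. The list is by name and uses no measured value as a rule, but it was drawn up with earlier results of these data known. Its members are lin-15B, lin-36, lin-13, hpl-2, lin-61, met-2, lin-65, let-418, hda-1 and mep-1, and all 10 were found in the WBcel235 annotation, among 19973 protein-coding genes on the nuclear chromosomes. Chromatin immunoprecipitation followed by sequencing was done in whole first-stage (L1) larvae of strain OP105, a pool of males and females of unstated age. All animals carried the unc119(ed3) allele and the transgene wgIs105, which expresses DPL-1 joined to TY1, EGFP and FLAG tags and a rescuing unc119 copy. The labels call the samples biological replicates 1 and 2 of that 1 group, so no group comparison was possible, and the spread given is that between these 2 samples. Both came from 1 strain, and the labels do not say whether the endogenous dpl-1 gene was intact. In whole larvae, strong occupancy in a few cells and weak occupancy in many cannot be told apart.

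DPL-1 is the worm DP protein. It pairs with the E2F protein EFL-1 in the DREAM complex, a repressor of cell-cycle and germline genes that contains the retinoblastoma-family protein LIN-35. Genes of the synMuv B class, to which DREAM belongs, prevent ectopic vulval induction and keep germline genes silent in somatic tissue. The class also holds proteins outside DREAM. LIN-15B and LIN-36 are THAP-domain proteins, a class of zinc-finger DNA-binding proteins. LIN-13 is a zinc-finger protein that works with the HP1 homologue HPL-2 and with LIN-61, an MBT-repeat protein that binds methylated histone H3 lysine 9. MET-2 is a SETDB1-type methyltransferase for that lysine, and LIN-65 is its cofactor. The Mi-2 ATPase LET-418, the histone deacetylase HDA-1 and the zinc-finger protein MEP-1 form a NuRD-like complex.

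The sequences around the summits are shown with matches to short motif words. Such matches are not measured binding sites. A summit is the position of highest signal that the authors gave for a peak. Each run below spans 201 bases of ce11 centred on a summit, 5' to 3' on the strand of the gene. The first 4 surround the summits of lin-15B (chrX:15725058-15725258, plus strand), lin-36 (chrIII:8021000-8021200, minus strand), lin-13 (chrIII:7710133-7710333, minus strand) and mep-1 (chrIV:11524394-11524594, plus strand) in the authors' IDR-thresholded list. The last surrounds the strongest summit of replicate 2 at let-418 (chrV:5826256-5826456, plus strand), a gene with no peak in that list. The pooled and replicate 1 summits at let-418, 54 and 71 bp upstream of its 5' end, lie outside that run. The run at lin-61, whose IDR summit has CHR-type words only, is not shown. Capitals mark E2F-type words, which are the word TTCCCGC, the word TTCGCGC, the word TTGCCGC and the word TTGGCGC, and CHR-type words, which are the word TTTGAA and the word TTCGAA. All were searched on both strands. The words of the first kind share no position with those of the second in these runs.
lin-15B: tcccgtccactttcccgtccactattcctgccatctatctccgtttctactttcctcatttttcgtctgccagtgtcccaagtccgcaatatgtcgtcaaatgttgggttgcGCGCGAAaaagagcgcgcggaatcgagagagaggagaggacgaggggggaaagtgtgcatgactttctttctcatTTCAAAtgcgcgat
lin-36: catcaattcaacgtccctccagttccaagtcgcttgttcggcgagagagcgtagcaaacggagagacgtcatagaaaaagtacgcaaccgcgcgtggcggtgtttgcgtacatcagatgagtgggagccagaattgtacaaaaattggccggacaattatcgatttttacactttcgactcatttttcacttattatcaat
lin-13: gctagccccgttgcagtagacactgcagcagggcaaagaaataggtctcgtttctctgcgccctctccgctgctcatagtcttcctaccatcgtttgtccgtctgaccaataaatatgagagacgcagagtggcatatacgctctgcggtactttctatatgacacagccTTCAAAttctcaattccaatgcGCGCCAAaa
mep-1: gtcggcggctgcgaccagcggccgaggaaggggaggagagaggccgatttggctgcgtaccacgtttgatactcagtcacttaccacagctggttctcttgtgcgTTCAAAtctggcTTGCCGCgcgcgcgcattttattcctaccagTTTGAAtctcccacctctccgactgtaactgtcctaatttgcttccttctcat
let-418: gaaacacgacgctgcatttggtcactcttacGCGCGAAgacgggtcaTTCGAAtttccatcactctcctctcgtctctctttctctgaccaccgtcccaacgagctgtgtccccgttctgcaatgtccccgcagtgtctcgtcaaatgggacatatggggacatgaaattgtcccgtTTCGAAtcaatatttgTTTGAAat

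An IDR summit lay in the promoter window of 5 of the 10 genes, which were lin-15B, lin-36, lin-13, lin-61 and mep-1. The window runs from 1000 bp upstream to 200 bp downstream of any annotated transcript 5' end. IDR, the irreproducible discovery rate, is a measure of how well peak ranks repeat between replicates. Of all 19973 protein-coding genes, 2866 (14.3%) had such a summit. The genes with a summit encode both THAP-domain proteins, the zinc-finger proteins LIN-13 and MEP-1, and the methyl-lysine reader LIN-61. The genes without one encode the HP1 homologue, the methyltransferase and its cofactor, the deacetylase and the Mi-2 ATPase. The division cuts across the groups named above. LIN-61 stands apart from the other proteins of histone H3 lysine 9 methylation, and MEP-1 from its partners in the NuRD-like complex. These descriptions were set beside the division after the values were seen.

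The IDR list held 2797 peaks, and their signals, the caller's own measure of peak strength, ran from 30.3 to 2461 with a median of 71.5. The scale of the signal is not stated and depth is unknown from these lists, so values are compared only within a list, by rank or against that list's median. The same 5 genes had summits of both replicates within 100 bp of each other, as 4208 genes (21.1%) did. Among the 2797 strongest peaks of each replicate, those of replicate 1 gave 6 of the 10 genes (14.4% of all genes) and those of replicate 2 gave 5 (13.8%). The sixth gene was hda-1.

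The THAP-domain gene lin-36 (WBGene00003021, III:8016648-8020873) carried the strongest peak of the 10 genes in the IDR list and in replicate 2, whereas in replicate 1 lin-61 ranked higher. Its signal was 174 in the IDR list (rank 619), 102 in replicate 1 (rank 661) and 76.8 in replicate 2 (rank 529), a mean rank of 595 ± 93.3 (SD, n = 2). The summit, III:8021100, lay 227 bp upstream of the 5' end, in an exon of the annotated non-coding RNA gene F44B9.11. It was the only gene of the 5 with a better rank in replicate 2 than in replicate 1. As the sequence shows, neither an E2F-type nor a CHR-type word lay within 100 bp of this summit.

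The other THAP-domain gene, lin-15B (WBGene00023497, X:15726123-15732025), had the weakest of the 5 IDR peaks. Its signal was 118 in the IDR list (rank 903), 79.3 in replicate 1 (rank 831) and 36.2 in replicate 2 (rank 1106), a mean rank of 969 ± 194 (SD, n = 2). The intergenic summit, X:15725158, lay 965 bp upstream of the 5' end, close to the edge of the window, and in no other protein-coding gene's window. An E2F-type word was centred 15 bp from it. The synMuv A gene lin-15A, which starts at the 3' end of lin-15B on the same strand, had no IDR summit in its own window.

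At lin-13 (WBGene00003002, III:7700338-7709491) the signal was 150 in the IDR list (rank 711), 101 in replicate 1 (rank 668) and 52.0 in replicate 2 (rank 793). The mean rank was 731 ± 88.4 (SD, n = 2). The intergenic summit, III:7710233, lay 742 bp upstream of the 5' end. Both words found there stood at the downstream edge of the run, a CHR-type word centred 72.5 bp and an E2F-type word 95 bp from the summit.

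The gene mep-1 (WBGene00003218, IV:11524642-11527954) was the only one of the NuRD-like trio with an IDR summit, and its replicates were the closest in rank. The signal was 121 in the IDR list (rank 885), 75.7 in replicate 1 (rank 858) and 46.0 in replicate 2 (rank 881), a mean rank of 870 ± 16.3 (SD, n = 2). The summit, IV:11524494, lay 148 bp upstream of the 5' end, within exons of the annotated non-coding RNA genes M04B2.11 and M04B2.13. An E2F-type word was centred 20 bp from the summit, between CHR-type words at 7.5 and 50.5 bp. Weaker summits in the same window had a signal of 12.6 in the pooled list and 4.55 in replicate 2.

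**Figure D1:**
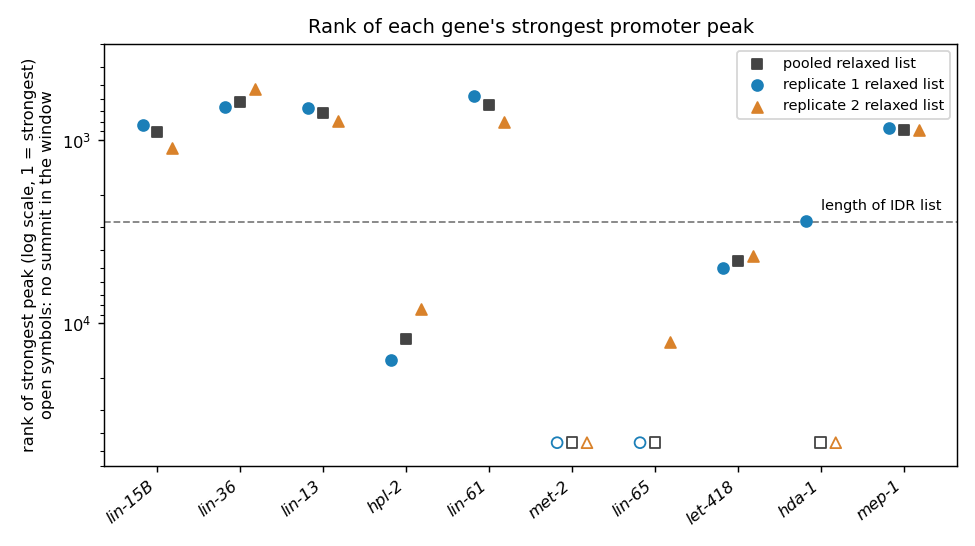
Rank of the strongest peak in the promoter window of each gene in the pooled and replicate relaxed lists, on a log axis with rank 1 at the top and the length of the IDR list (2797) as a dashed line. Open symbols at the bottom mark genes with no summit in that list, and the 5 genes with an IDR summit sit between ranks 529 and 1106 in every list.

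Among the genes of histone H3 lysine 9 methylation, lin-61 (WBGene00003041, I:7248827-7251282) alone had an IDR summit. Its signal was 167 in the IDR list (rank 642), 118 in replicate 1 (rank 575) and 51.4 in replicate 2 (rank 800), a mean rank of 688 ± 159 (SD, n = 2). The intergenic summit, I:7251729, lay 447 bp upstream of the upstream-most 5' end of lin-61 and 212 bp from that of bub-1, a spindle checkpoint kinase gene transcribed the other way. The peak thus stood in both windows, and the nearer gene was bub-1. It was the only one of the 5 peaks shared with another protein-coding gene, whereas 57.4% of all 2866 genes with an IDR summit had no peak of their own. There were 3 CHR-type words and no E2F-type word within 100 bp of the summit.

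The peaks at lin-61 and lin-36 were narrow. They spanned 124 and 133 bp in the IDR list, against a median width of 316 bp, and 11.7% of its peaks were narrower than 200 bp. In replicate 1 the lin-61 peak spanned 113 bp and the lin-36 peak 320 bp, which was that list's median width, and in replicate 2 both spanned 250 bp, again the median of the list.

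The signals of the 5 peaks lay in a limited band. They ran from 118 to 174 in the IDR list, with ranks from 619 to 903 of 2797, that is from the 67.7 to the 77.9 percentile of signal. Over all 2866 genes with an IDR summit the median signal of the strongest peak was 95.1 and the interquartile range was 52.3 to 212. All 5 peaks were thus above the median of these genes and below their upper quartile. Relative to the median of each replicate's 2797 strongest peaks, the log2 signal was 1.33 ± 0.19 for lin-36, 1.14 ± 0.37 for lin-61 and 1.04 ± 0.20 for lin-13 (SD, n = 2 each). It was 0.74 ± 0.04 for mep-1 and 0.60 ± 0.33 for lin-15B. In both replicates lin-36, lin-61 and lin-13 each stood above mep-1 and lin-15B. The order of the first 3 genes among themselves, and that of mep-1 and lin-15B, changed from one replicate to the other.

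**Figure D2:**
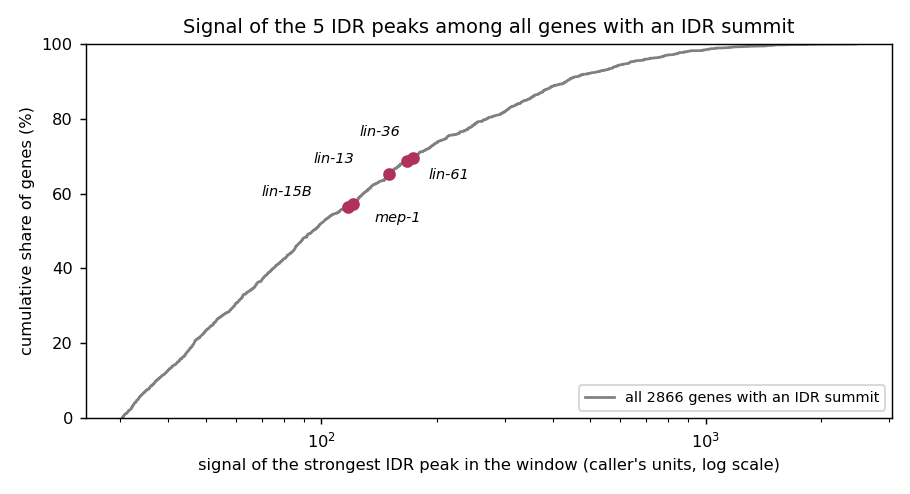
Cumulative share of all 2866 protein-coding genes with an IDR summit (vertical axis, percent) against the signal of the strongest IDR peak in the window (horizontal axis, log scale, caller's units). The 5 genes, shown as points, lie between signals of 118 and 174, above the median of 95.1 and below the upper quartile of 212.

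The replicates placed the 5 summits at nearly the same bases. The gap between the replicate summits was 7 bp at lin-13, 16 bp at lin-15B, 19 bp at lin-61, 29 bp at mep-1 and 32 bp at lin-36. Across the 2683 IDR peaks (95.9%) with a summit of each replicate within 100 bp, the median gap was 17 bp with an interquartile range of 7 to 37 bp. The rank difference between replicates ran from 23 to 275 for the 5 genes, against a median of 247 over those peaks. The IDR list derives from both replicates' data, so part of this closeness is built in.

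Summits of lin-15B and lin-13 lay far upstream for promoter peaks. The median distance of the 5 summits was 447 bp upstream, against 219 bp over all genes with an IDR summit (interquartile range 126 to 393 bp). Only 256 of those 2866 genes (8.93%) had their strongest summit more than 700 bp upstream. Annotated 5' ends of trans-spliced worm transcripts can lie downstream of the true start of transcription, and whether this holds for lin-15B and lin-13 was not tested.

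**Figure D3:**
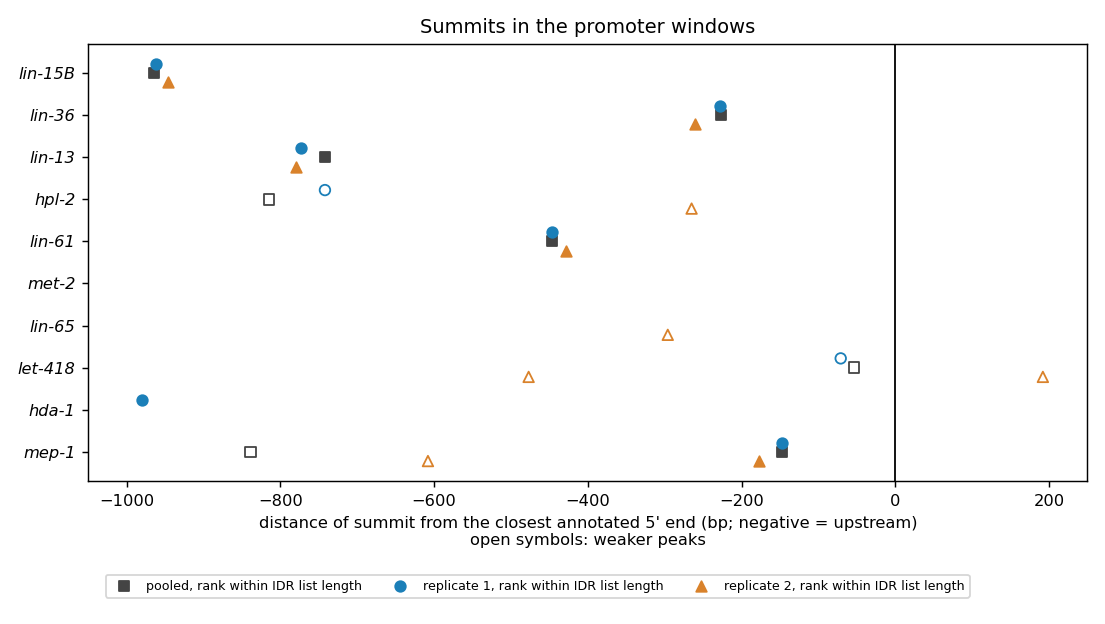
Distance of every summit in the promoter windows from the closest annotated 5' end (horizontal axis in bp, negative values upstream), with 1 row per gene. Squares are the pooled list, circles replicate 1 and triangles replicate 2, filled where the peak ranks within the first 2797 of its list, and the filled symbols of the 5 genes with an IDR summit coincide within 38 bp.

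Of the other 5 genes, all but hda-1 had weak, scattered or no summits in their windows in the relaxed lists. Weak peaks and background were kept in these lists. Such lists mark many genes. The pooled list of 23883 peaks gave 7 of the 10 genes (41.2% of all genes). The lists of 30000 peaks gave 8 of 10 genes in replicate 1 (46.6% of all genes) and 8 of 10 in replicate 2 (46.3%).

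The Mi-2 gene let-418 (WBGene00002637, V:5826833-5832831) had the strongest pooled summit in the window of these 5 genes. Its pooled signal was 18.5 (rank 4567), at V:5826779 and 54 bp upstream of the 5' end, and the signal in replicate 1 was 12.3 (rank 5009), 71 bp upstream. In replicate 2 the strongest summit, with a signal of 8.62 (rank 4312), lay 477 bp upstream, and another with a signal of 4.64 (rank 14197) lay in the coding sequence 192 bp downstream. The replicate summits were thus 263 bp apart at the least. E2F-type words were also searched in the 1201 bp window around the first annotated 5' end of each gene. Windows around further 5' ends, which hpl-2 and lin-65 have, were not searched in full. Of the 5 genes without an IDR summit only let-418 had such words there, at 578 and 543 bp upstream. The nearer one was centred 66 bp from the replicate 2 summit, as the last sequence shows.

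The deacetylase gene hda-1 (WBGene00001834, V:14525389-14527411) lay just outside both limits. A pooled peak of signal 28.3 (rank 2968) had its summit at V:14524368, 1021 bp upstream of the 5' end and so 21 bp beyond the window, and its rank was 171 places past the last IDR peak. In replicate 1 the summit lay 980 bp upstream, inside the window, with a signal of 19.5 (rank 2768). In replicate 2 it lay 1018 bp upstream with a signal of 9.90 (rank 3584). The site fell in an exon of the annotated non-coding RNA gene C53A5.18 and was nearer to ril-1, whose 5' end was 239 bp from the pooled summit. The closest IDR summit to hda-1 was 68581 bp away, farther than for most genes without an IDR summit, of which 11.2% lay still farther.

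The HP1 gene hpl-2 (WBGene00001996, III:10752195-10755530) had only weak summits in its window. The pooled signal was 11.5 (rank 12210), close to that list's median of 11.6, that of replicate 1 was 7.15 (rank 16000) and that of replicate 2 was 6.0 (rank 8345), and the replicate summits lay 477 bp apart. The gene stands in a tight row on the minus strand, 93 bp downstream of rnf-113, which abuts K01G5.10. Upstream of these genes stood the peak of rank 4 in the IDR list (III:10759248, signal 1833), 3718 bp upstream of hpl-2. Its summit lay 726 bp upstream of K01G5.10 and 59 bp upstream of tasp-1, in the windows of both. The nearer gene was tasp-1. Genes so close on 1 strand are often transcribed together in worms as operons. Whether hpl-2 is transcribed together with the genes upstream of it was not tested.

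The methyltransferase gene met-2 (WBGene00019883, III:8375300-8380848) was the only one of the 10 without a summit in any of the 4 lists. It begins 127 bp downstream of lmbr-1 on the same strand, and lmbr-1 had no IDR summit in its window either. The nearest IDR summit, III:8371020 with a signal of 38.1 (rank 2320), lay 4280 bp upstream of met-2 and in no protein-coding gene's window. For lin-65 (WBGene00022149, I:1755329-1766400), which has 3 annotated 5' ends, replicate 2 alone gave a summit, with a signal of 4.93 (rank 12625) in an intron 296 bp upstream of the inner 5' end. Upstream of it, 918 bp away, ends Y71G12B.10, whose window held an IDR summit of signal 33.5 (rank 2559) that it shares with mppa-1.

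No IDR summit lay inside the transcribed region of any of the 10 genes. The nearest IDR summit was 3718 bp from hpl-2, 4043 bp from lin-65, 4280 bp from met-2 and 17748 bp from let-418. The median over the 17107 protein-coding genes without a summit was 16143 bp.

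The E2F-type words occurred at 3 of the 5 IDR summits, those of lin-15B, lin-13 and mep-1. At all 2797 IDR summits 23.1% of the 201 bp windows held such a word, and 6.29% of the 201 bp windows that end at the 5' end of each protein-coding gene did. CHR-type words occurred at 4 of the 5 summits, against 52.1% of all IDR summits and 56.2% of the windows before 5' ends, so they were no more frequent at IDR summits than at promoters at large. Both kinds stood together at 3 of the 5 summits, against 15.6% of all IDR summits. In the 1201 bp window around the first annotated 5' end alone, E2F-type words were found at 4 of the 10 genes and at 30.3% of all genes. GC content within 100 bp of the summit was 54.7% at mep-1, 50.7% at lin-15B, 49.3% at lin-13, 45.3% at lin-36 and 43.8% at lin-61, all above the median of 40.8% for IDR summits. The median for the windows before 5' ends was lower, 32.8%. Words rich in G and C are more frequent in GC-rich sequence, and the part of GC content in these counts was not tested.

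**Figure D4:**
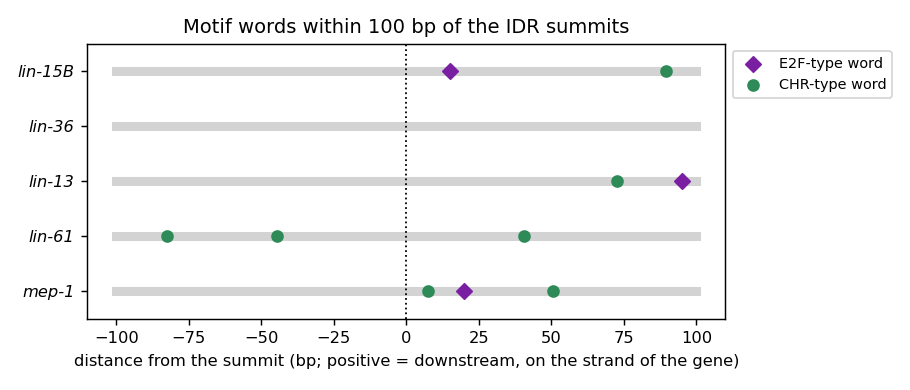
Centres of E2F-type words (diamonds) and CHR-type words (circles) within 100 bp of the IDR summits of the 5 genes, with distance from the summit in bp on the strand of the gene. At lin-15B, lin-13 and mep-1 all words lie downstream of the summit, at lin-61 there are 3 CHR-type words alone, and at lin-36 there is none.

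In lists of related genes, the counts with an IDR summit are again set against the 14.3% of all protein-coding genes. Of 8 further NuRD-type genes 3 had one, led by the histone-binding gene lin-53 (signal 547), which is also a DREAM gene and shares the peak with nra-2, and dcp-66 (47.3). Of 6 further genes of histone H3 lysine 9 methylation and heterochromatin 1 had one, a share close to that of all genes. It was the chromodomain gene cec-3 (59.5), in a window shared with T09A5.15 and sds-22. The H3 lysine 9 methyltransferase gene set-25 and the gene arle-14 had replicate summits within 100 bp of each other but no IDR summit. Of 4 synMuv A genes, which act redundantly with the B class in vulval development, lin-38 alone had one (86.7), shared with mrpl-37.

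Of the other lists of chromatin regulators, a summit lay at 6 of 8 DREAM genes (median signal 590), led by efl-1 (1443) and lin-54 (781). Of these 6 peaks 5 stood also in another protein-coding gene's window, with fbxa-90 at efl-1, vps-51 at lin-35, nra-2 at lin-53, ZK632.9 at lin-52 and the ribosomal protein gene rpl-12 at lin-54. The last lay 366 bp from lin-54 and 27 bp from rpl-12. An IDR summit lay at 7 of 8 TIP60 and SUMO synMuv genes (median 135), led by the SUMO gene smo-1 (322) and the acetyltransferase gene mys-1 (286), and at 3 of 4 MES genes (median 254), led by mes-2 (852) and mes-6 (254). Shared peaks were 3 of 7 in the TIP60 and SUMO list, 1 of 3 in the MES list and 1 of 3 in the NuRD-type list. The heterochromatin and synMuv A lists each had 1 of 1. For the 10 genes described here the count was 5 of 10 and the median 150, with 1 of 5 peaks shared. The strongest of their 5 IDR peaks, 174 at lin-36, was thus below the DREAM median. The lists are too short and too selected for a test of the difference.

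**Figure D5:**
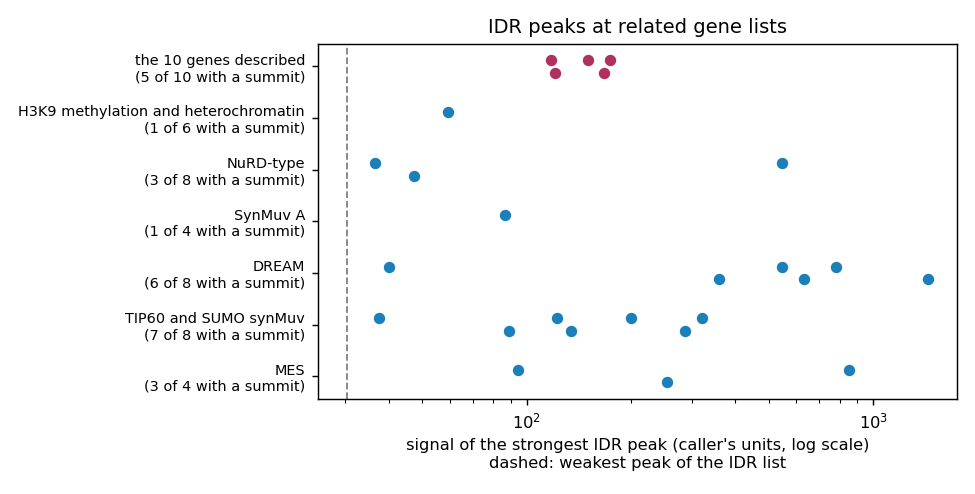
Signal of the strongest IDR peak (horizontal axis, log scale, caller's units) for each gene with an IDR summit in the 10 genes described and in 6 lists of related genes, with the number of genes per list on the left and the weakest IDR peak as a dashed line. The 5 points of the 10 genes span 118 to 174, whereas those of DREAM span 40.1 to 1443.

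On the other genome build, whose lists come from the same 2 samples and so give no independent support, the 5 IDR peaks were also called. Each had a counterpart in the deposited ce10 list with the same chromosome, width and summit offset and the same signal to 2 significant digits, as had the strongest peaks of the 10 genes in the pooled list (7 of 7), replicate 1 (8 of 8) and replicate 2 (8 of 8).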

How the data were processed

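Peak lists of tagged DPL-1 in 2 L1 samples were used on ce11, and the ce10 lists only to look for the same peaks. Per the deposited file listing, each relaxed list derives from alignments and 1 control file, and the IDR list from the 3 relaxed lists. No aligner, peak caller or IDR threshold is named in the labels or the listing. As deposited, the signal is the caller's strength per peak, of unstated scale and depth. The deposited −log10 q values reached their highest level for all 5 IDR peaks and were not used for ranking. The IDR peaks were the 2797 strongest of the pooled list, whose values they carry.

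Summits were taken as start plus offset, 1-based, and assigned to genes of Ensembl release 115 (WBcel235). Sequence came from the RefSeq genome of the same assembly. Window and motif code (Python 3.11.15, pandas 2.3.3, numpy 2.4.6) was checked on constructed cases. No test was made: there was 1 group, and the members, related lists and motifs were chosen with earlier results of these data known. Named were all 10 genes, genes sharing or neighbouring their summits, and the 2 strongest of each related list. Other names were chosen after their values were seen. Alternatives were other windows, nearest genes, stricter lists, single replicates, match distances and motif spans.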

Additional observations from a re-analysis of the deposited data

How the results depend on the processing

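Of 10 genes, 5 had an IDR summit in the window as reported. With 500 bp upstream it was 3, without lin-15B and lin-13, and with only peaks above the upper quartile of signal it was 2, lin-36 and lin-61. The count was 4 with the nearest gene only. It was 5 with 2000 bp upstream, with protein-coding transcripts only or with peaks above the median signal. When 1 replicate was left out, the 2797 strongest peaks of the other took the place of the IDR list. They gave 5 to 6 genes, the sixth being hda-1 in replicate 1 alone. With 500 bp upstream, 4 genes in place of 7 had a summit in the pooled relaxed list, and 4 in place of 7 had summits in both replicates. For the altered windows, nearest genes and signal limits, and for summits in both replicates, no share of all genes is given. Whether these counts fell more than those of all genes was therefore not tested. The median percentile of the 5 peaks was 74.6 in the IDR list, and 71.4 to 73.2 among the 2797 strongest peaks of a single replicate. The 73.2, from replicate 1, includes hda-1 as a sixth gene, and the same 5 genes gave 76.1 there. E2F-type words were at 2 summits within 50 bp and at 3 within 150 bp. An alternative added after seeing the data, which also counted windows of same-strand genes upstream, gave 7 of 10 by adding hpl-2 and lin-65, and 21.2% of all protein-coding genes under the same rule. The unknown depth and the weak end of the relaxed lists limit what can be said of genes without an IDR summit.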

Other observations

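The site upstream of lin-36, which holds neither kind of motif word, has an exact inverted repeat around its summit. The arms gtacgcaa and ttgcgtac, 8 bases each, are separated by 16 bases and reach 21 bp to the upstream side and 10 bp to the downstream side of the summit, read on the gene's strand. An inverted repeat of this arm length with at most 40 bases between the arms stood in 24.2% of all 2797 IDR windows of 201 bp and in 28.5% of the windows before 5' ends, so its presence does not set the site apart. It was noticed after the sequence was seen. At the other IDR summits of the 10 genes no such repeat was found.

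The IDR summits of lin-36 and mep-1 and the summit next to hda-1 all lay in exons of annotated non-coding RNA genes, which were F44B9.11, M04B2.11, M04B2.13 and C53A5.18. The IDR summits of lin-15B, lin-13 and lin-61 were intergenic, as was the replicate 2 summit at lin-36. Exons of annotated non-coding RNA genes held 2 of the 5 IDR summits and 6.15% of all 2797. This was noticed after the annotations were seen, and no test was made. Peak lists do not show whether these loci were transcribed in the larvae.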
